A study of Mus musculus with 4 samples.

Results

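The genes described here encode the subunits of heterotrimeric G proteins and the regulators of G protein signalling (Rgs). They were chosen by symbol alone, as every gene of the count table named as a G alpha (Gna), G beta (Gnb1 to Gnb5), G gamma (Gng, Gngt) or numbered Rgs gene. This gave 49 genes of the 29161 in the table, namely 15 Gna, 5 Gnb, 10 Gng or Gngt and 19 Rgs genes. The rule itself used no measured value, but it was set with earlier results of these data known.

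A heterotrimeric G protein couples a receptor in the plasma membrane to enzymes and channels inside the cell. The alpha subunit binds GTP once the receptor is activated and separates from the paired beta and gamma subunits, and both parts then signal. Gs alpha and Golf stimulate adenylyl cyclase, Gi and Go family members inhibit it or act through beta-gamma, and Gq family members stimulate phospholipase C beta. Rgs proteins speed the hydrolysis of GTP by Gi, Go or Gq alpha subunits and so end the signal. In enteroendocrine cells, the hormone-secreting cells of the gut epithelium, receptors coupled to G proteins sense nutrients and neurotransmitters and set hormone release.

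The data are single-cell RNA counts from eYFP-positive cells of mouse enteroids, which are mini-guts of intestinal epithelium grown with R-spondin-1, EGF and noggin. All mice were female CD1 animals carrying the Neurog3eYFP/+ reporter allele, so no plate holds cells without the reporter. Neurog3 is the transcription factor that starts the endocrine programme, and cells can keep eYFP after Neurog3 itself is gone. Plate 1 was duodenum replicate 1 at 39 weeks, plates 2 and 3 were duodenum replicates 2 and 3 at 12 weeks, and plate 4 was jejunum replicate 1 at 12 weeks. These plates held 72, 83, 72 and 63 cells, 290 of the 368 sorted. Total counts per plate ran from 23893272 to 46490618, and per cell from 202711 to 2312044. Tissue and age rest on matching the experiment number of each well to the pool number of the sample. The plates are the replicates, and nothing in the labels says whether a plate came from 1 animal or several.

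Cells were placed in 4 classes that may overlap. Tph1-high cells had at least 200 CPM (counts scaled to a library total of 1000000) of Tph1, the rate-limiting enzyme of serotonin synthesis and a marker of enterochromaffin cells, and numbered 21, 25, 20 and 31 in plates 1 to 4. Peptide-hormone-high cells had at least 1000 CPM of Cck, Gip, Gcg or Ghrl, which encode cholecystokinin, GIP, proglucagon and ghrelin, and numbered 3, 22, 10 and 15. Neurog3-positive cells had at least 5 Neurog3 counts and numbered 7, 12, 24 and 7. Chgb-low cells had under 2000 CPM of Chgb, a protein of secretory granules, and numbered 44, 37, 39 and 19. Another 19 cells were in no class, and 17 cells were both Tph1-high and Neurog3-positive. Near the limits, the nearest Tph1 levels were 185 CPM outside and 223 CPM inside, and the nearest Chgb levels were 1712 CPM in a Chgb-low cell and 2198 CPM in a Chgb-high one. For Neurog3 the nearest counts were 3 outside and 5 inside. For Cck they were 879 and 1072 CPM, for Gip 907 and 2072 CPM, for Gcg 548 and 1239 CPM, and for Ghrl 942 and 1284 CPM.

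Markers were checked against the class names. Tac1, the substance P precursor gene, is 1 of the enterochromaffin markers that took no part in defining a class. It stood at 2692, 5091, 5407 and 5734 CPM in Tph1-high cells of plates 1 to 4. In peptide-hormone-high cells outside the Tph1-high class it stood at 223, 557 and 892 CPM in plates 2 to 4. Lmx1a, Slc18a1, Ddc, Ucn3 and Trpa1 were also higher in Tph1-high than in peptide-hormone-high cells of plates 2 to 4. Some were weak markers. Ucn3 reached 5 counts in 1, 9, 3 and 2 Tph1-high cells of plates 1 to 4, and Trpa1 in 2, 8, 6 and 7. Ddc stood at 2665, 1389 and 3955 CPM in Tph1-high cells of plates 2 to 4, against 1088, 497 and 1878 CPM in peptide-hormone-high cells. The 6 goblet markers summed to 24209, 21194, 17826 and 22721 CPM in Chgb-low cells of plates 1 to 4, against 827, 1189, 1506 and 1208 CPM in Chgb-high cells. The 6 Paneth markers summed to 13280, 3135, 8959 and 11365 CPM against 388, 328, 1056 and 652 CPM. Within these sums, Agr2 in plate 2 (32.2 against 159 CPM), Mmp7 in plate 3 (92.1 against 102 CPM) and Itln1 in plate 4 (0.815 against 60.3 CPM) were lower in Chgb-low cells. Paneth markers were uneven over cells. In plate 1 the median cell had 24.2 against 20.8 CPM of Defa24, but 162 against 5.34 CPM of Ang4. Summed markers of more than 1 cell type were thus higher in Chgb-low cells, which are therefore called by their rule throughout. Hormone genes often had counts in cells below the class limit (Gip in 63 of 63 cells of plate 4, with 4 at 1000 CPM or more). For Gcg it was 59 of 83 cells of plate 2, with 2 at that level. Whether such low counts arose in the cell or were carried over from other wells was not tested. Detection is given as at least 5 counts in a cell, a limit that leaves out some of these low counts but not all. Gip still reached 5 counts in 63 of 63 cells of plate 4 and 41 of 83 cells of plate 2. Among the genes described here, Rgs4 had 1 count or more in 65 cells and 5 or more in 16, and Gng4 in 145 and 85.

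Of the 49 genes, 26 had over 1000 counts in all and 28 had counts in every plate. At 5 counts or more, 15 genes were detected in at least 50 cells. At the other end, 9 genes had under 20 counts in the whole table and reached 5 counts in no cell. These were Gnat1, Gnat3, Gnb3, Gng10, Gng13, Rgs5, Rgs6, Rgs18 and Rgs22. Gnat3 and Gng13, the alpha gustducin and gamma subunits known from taste and tuft cells, had 3 counts and 1 count. Of 8 listed tuft cell markers 5 were in the table. Their summed level was at most 11.1 CPM in any of the 4 classes and any plate, and 39.3 CPM in the 6 cells of plate 1 in no class.

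The promoters of Rgs2, Rgs4, Gnai1 and Gng4 are shown because Rgs2 and Rgs4 passed the test between Chgb-low and Chgb-high cells, and Gnai1 and Gng4 are followed through every comparison whether or not they passed. RefSeq windows were found for 35 of the 49 genes, on GRCm38.p6. Each line gives bases 250 to 21 before the annotated start, in the direction of transcription. Capitals mark every match, on either strand, to TGACGTCA (the full cyclic AMP response element), TGACG (its 5-base core, also inside the full element), CAGCTG (an E-box), the further E-box CAGATG, the motif TAATTA (a homeodomain core) and TATAAA.
Rgs2, chr1:144004170-144004399, minus strand: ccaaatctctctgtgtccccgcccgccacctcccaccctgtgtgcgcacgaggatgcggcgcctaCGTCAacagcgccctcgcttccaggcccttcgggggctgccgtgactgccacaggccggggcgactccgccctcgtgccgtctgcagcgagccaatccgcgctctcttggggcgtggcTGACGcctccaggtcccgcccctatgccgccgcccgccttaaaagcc
Rgs4, chr1:169747663-169747892, minus strand: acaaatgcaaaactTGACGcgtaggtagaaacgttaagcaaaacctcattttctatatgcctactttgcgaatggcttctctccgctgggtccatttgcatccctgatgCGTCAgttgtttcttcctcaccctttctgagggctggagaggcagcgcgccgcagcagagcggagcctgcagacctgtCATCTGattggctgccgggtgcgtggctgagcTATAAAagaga
Gnai1, chr5:18360434-18360663, minus strand: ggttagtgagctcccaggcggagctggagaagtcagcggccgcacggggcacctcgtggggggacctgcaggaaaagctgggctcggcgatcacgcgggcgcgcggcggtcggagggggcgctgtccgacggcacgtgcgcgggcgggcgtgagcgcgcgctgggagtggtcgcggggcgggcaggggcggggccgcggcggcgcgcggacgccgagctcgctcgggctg
Gng4, chr13:13783809-13784038, plus strand: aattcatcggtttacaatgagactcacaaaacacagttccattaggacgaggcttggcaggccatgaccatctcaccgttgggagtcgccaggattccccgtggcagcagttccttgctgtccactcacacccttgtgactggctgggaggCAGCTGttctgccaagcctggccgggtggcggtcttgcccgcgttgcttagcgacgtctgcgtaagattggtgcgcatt
Rgs2 and Rgs4 each held the 5-base core TGACG 2 times, and Rgs4 also held CAGATG and TATAAA, the last starting 31 bases before the start. Gng4 held CAGCTG and Gnai1 held none of the 6 motifs. Among all 32851 windows of this length, 15.9% held TGACG, 1.28% TGACGTCA, 11.8% CAGCTG, 13.4% CAGATG, 4.67% TAATTA and 11.8% TATAAA. The matches are a description of these letters only. In GENCODE M21 on GRCm38 the genes themselves are Rgs2 (ENSMUSG00000026360) at chr1:143999338-144004161, Rgs4 (ENSMUSG00000038530) at chr1:169741477-169747642, Gnai1 (ENSMUSG00000057614) at chr5:18265135-18360355 and Gng4 (ENSMUSG00000021303) at chr13:13784059-13827896. Gng4 overlaps 1 annotated gene on the same strand, and Rgs2 and Rgs4 overlap none.

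**Figure D1:**
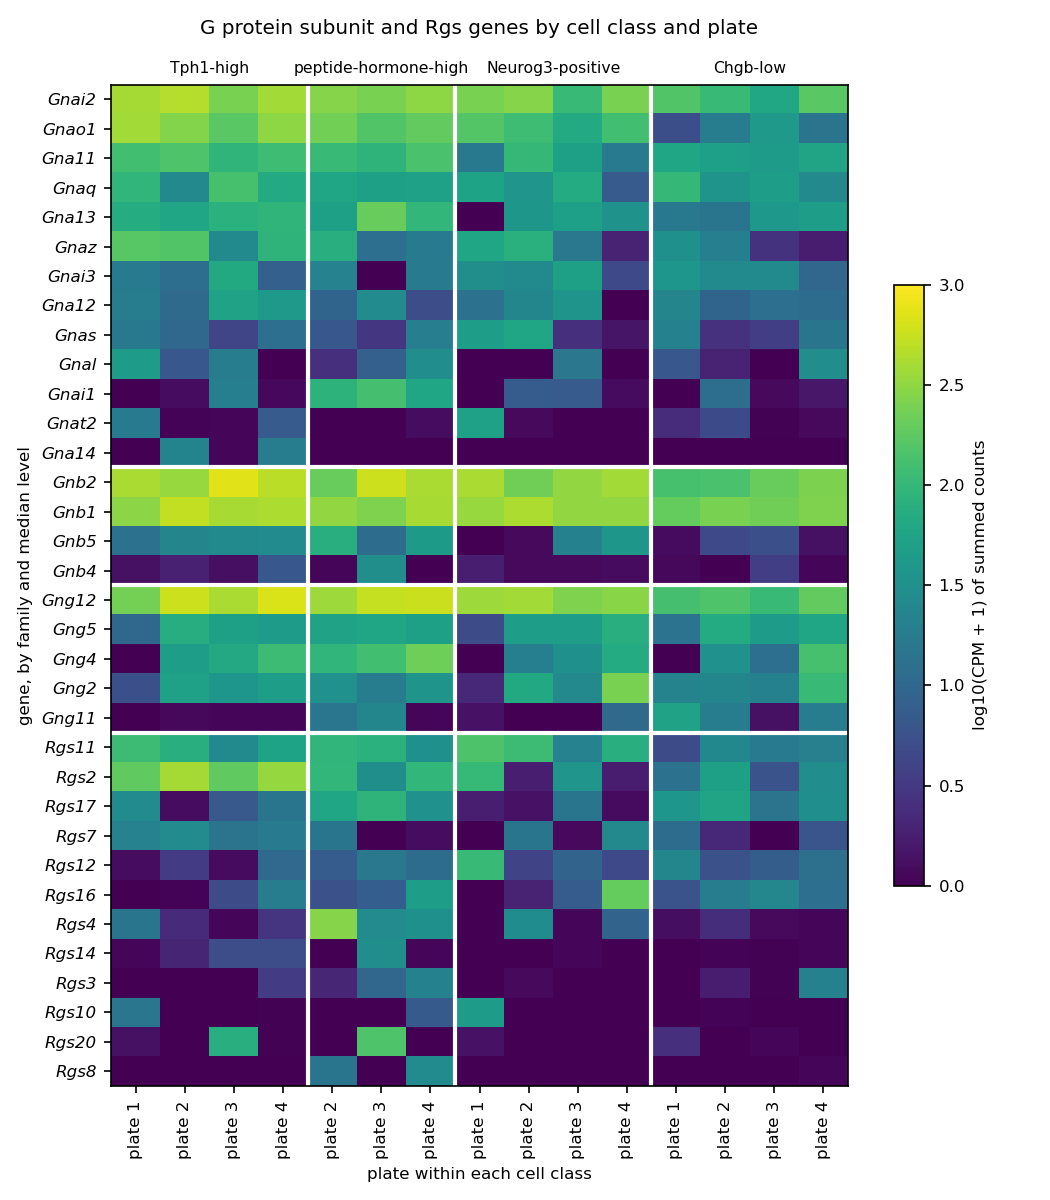
Level of the 34 genes that reached 20 CPM in at least 1 class and plate. Rows are genes grouped by family, columns are plates within each cell class with at least 5 cells, and colour is log10(CPM + 1) of the summed counts. Gnai2, Gnb1, Gnb2 and Gng12 are bright in every column, while Rgs2 is brightest in Tph1-high and Gnai1 and Rgs4 in peptide-hormone-high columns.

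Within families, levels were compared per kilobase of annotated exon, as each gene's share of its family. Among the alpha subunits, Gnai2, an inhibitory Gi subunit, led in 15 of 15 class and plate combinations with at least 5 cells. Its share of Gna ran from 28.4% in Neurog3-positive cells of plate 3 to 74.2% in Neurog3-positive cells of plate 4. Gna11, a Gq family subunit, had 11.5%, 14.2%, 11.9% and 12.3% in Tph1-high cells of plates 1 to 4. Gnao1, which encodes the neuronal Go alpha subunit, had 13.3%, 10.1%, 8.25% and 12.2% there, but 0.378%, 2.32%, 6.67% and 1.46% in Chgb-low cells. Its share was thus lower in Chgb-low than in Tph1-high cells of every plate. Gnaz, a Gi family subunit, took 17.6%, 16.7%, 3.74% and 10.7% of Gna in Tph1-high cells. Gnai1, another Gi subunit, took 13.8%, 21.2% and 9.75% in peptide-hormone-high cells of plates 2 to 4 and at most 3.18% in Tph1-high cells. Gnas, the Gs alpha gene, stood at only 17.8, 12.9, 2.57 and 10.3 CPM over plates 1 to 4. It overlaps 5 annotated genes, 3 of them on its own strand, so its counts are uncertain.

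The beta and gamma families were led by the same few genes in most classes. Gnb2 led the beta subunits in 10 combinations and Gnb1 in 5, a split that depends on the measure. By the mean over single cells, Gnb1 also led in Neurog3-positive cells of plates 3 and 4 and Chgb-low cells of plate 3. Without length scaling, it also led in Neurog3-positive cells of plate 3 and Chgb-low cells of plates 3 and 4. Together Gnb1 and Gnb2 left at most 15.3% to Gnb5, the beta subunit that pairs with the R7 group of Rgs proteins. Gng12 led the gamma subunits in 14 of 15 combinations, with 84.9%, 67.0%, 65.5% and 70.2% in Tph1-high cells. The exception was Gng11 in Chgb-low cells of plate 1, with 60.2%. There Gng11 reached 5 counts in 5 of 44 cells. Its share was 23.9% without length scaling and 11.3% as the mean over single cells, with Gng12 leading in both cases. By the mean over single cells, however, Gng5 and not Gng12 led in Chgb-low cells of plates 2, 3 and 4. Gng5 also led by that measure in Neurog3-positive cells of plate 4. Gng4, a gamma subunit known mainly from neural and endocrine tissue, held 19.0%, 18.4% and 30.7% of the gamma family in peptide-hormone-high cells of plates 2 to 4. In Tph1-high cells of the same plates Gng4 held 7.51%, 14.6% and 16.2%.

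The Rgs family had no common leader. Rgs2, known for acting on Gq alpha, led in 8 of 15 combinations and held 52.0%, 82.1%, 63.0% and 77.1% of Rgs in Tph1-high cells of plates 1 to 4. As the mean over single cells its shares were 41.0%, 42.2%, 48.9% and 56.5%. In plate 2, 1 Tph1-high cell held 2405 of the 6559 Rgs2 counts. In peptide-hormone-high cells it held 16.5%, 8.53% and 34.3% in plates 2 to 4. Rgs4, which acts on Gi and Gq alpha, led in 1 combination, with 58.1% in peptide-hormone-high cells of plate 2. Rgs11, an R7 group member, led in Neurog3-positive cells of plates 1 and 2 with 33.8% and 68.2%. Rgs16 led in Neurog3-positive cells of plate 4 and Chgb-low cells of plate 3, Rgs17 in Chgb-low cells of plate 1, and Rgs20 in peptide-hormone-high cells of plate 3. The Rgs20 lead of 35.8% came from 1 cell, which held 685 of the 856 counts of that plate. That cell was Tph1-high and peptide-hormone-high at once. Several of these leads depend on the measure. By the mean over single cells, Rgs2 led in Chgb-low cells of plates 1 to 4 and Rgs17 in peptide-hormone-high cells of plate 3. Without length scaling, Rgs17 and not Rgs2 led in Chgb-low cells of plates 2 and 4.

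**Figure D2:**
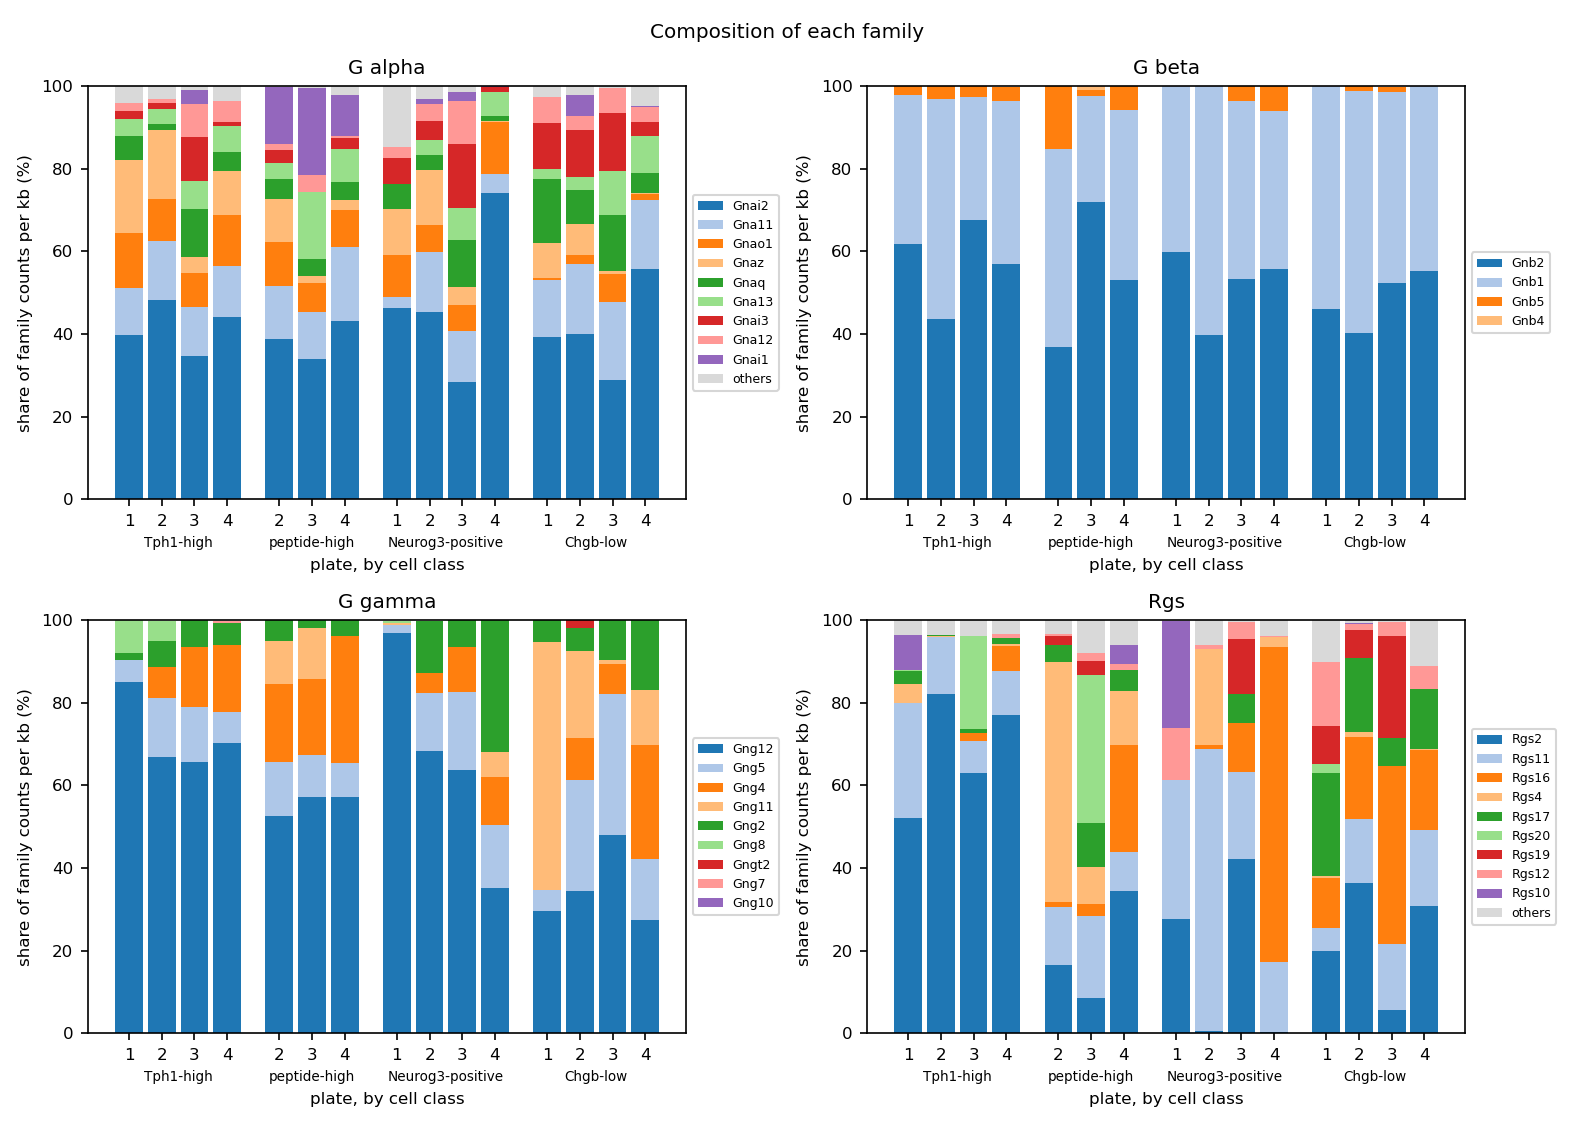
Composition of each family, as the share of family counts per kilobase of exon (y axis, %), for each plate (x axis) within the 4 cell classes. Gnai2 is the largest alpha segment in all 15 bars and Gng12 the largest gamma segment in 14, whereas the largest Rgs segment changes between classes, with Rgs2 at 52.0% to 82.1% in Tph1-high cells.

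Many of these genes were found in few cells. In 30 of the 119 combinations of gene and plate with at least 100 counts, 1 cell held 50% or more of the counts, and 18 genes had such a plate. All 113 counts of Rgs10 in plate 1 came from 1 Tph1-high, Neurog3-positive cell, and 107 of 108 counts of Rgs1 in plate 2 from 1 peptide-hormone-high cell. For Gng8 in plate 2 it was 97.7% of 173 counts, for Gnb4 in plate 4 97.9% of 142, for Rgs7 in plate 3 98.3% of 119, and for Gnat2 in plate 4 97.5% of 161. Rgs12 in plate 1 (85.6% of 320), Gnal in plates 1 to 4 (61.0% to 77.4%) and Gna14 in plates 2 and 4 (61.2% and 69.5%) were alike. Levels of these genes describe single cells and not classes. Rgs4 also had such plates, with 57.0% of 263 counts in plate 1 and 75.2% of 129 in plate 3. Its levels in those plates rest mostly on 1 cell each.

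The first comparison asked which subunits and regulators separate serotonin cells from peptide hormone cells. It set the Tph1-high cells that were not peptide-hormone-high against the peptide-hormone-high cells that were not Tph1-high, in the 3 plates with at least 5 of each (25 and 22 cells in plate 2, 19 and 9 in plate 3, 30 and 14 in plate 4). Plate 1 had 2 such peptide-hormone-high cells and was left out. Rgs2 and Gnaz were at least 2-fold higher in Tph1-high cells in each of these plates, and Rgs4, Gnai1 and Rgs17 at least 2-fold lower. None of the 27 genes tested passed edgeR's quasi-likelihood test at an adjusted p of 0.05, where 0.0437% of all 11445 genes tested did.

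Rgs2 was the gene with the smallest adjusted p. It stood at 397, 191 and 337 CPM in Tph1-high cells of plates 2, 3 and 4, and at 94.9, 32.6 and 74.4 CPM in the peptide-hormone-high cells. Every Tph1-high value was above every peptide-hormone-high value. The fitted log2 difference was 2.22 (SE 0.31), with an edgeR adjusted p of 0.288. At least 5 counts were seen in 10 of 25, 4 of 19 and 18 of 30 Tph1-high cells and in 4 of 22, 1 of 9 and 3 of 14 peptide-hormone-high cells. In plate 1, outside the test, Rgs2 stood at 194 CPM in 20 Tph1-high cells.

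Rgs4 ran the other way. Its levels were 1.31, 0.114 and 2.01 CPM in Tph1-high cells and 286, 28.8 and 34.3 CPM in peptide-hormone-high cells, and the 2 classes did not overlap. The log2 difference was -6.50 (SE 1.16) and the edgeR adjusted p 0.412. In plate 3, 1 cell held 75.2% of the 129 Rgs4 counts. Plate 1, outside the test, went the other way. There 2 of the 20 Tph1-high cells held Rgs4 at 179.5 and 129.2 CPM, and both peptide-hormone-high cells had 0. Gnai1 stood at 0.246, 19.4 and 0.123 CPM against 84.96, 137 and 62.5 CPM, again without overlap, a log2 difference of -6.97 (SE 1.88) with an edgeR adjusted p of 0.522. It reached 5 counts in 0 of 25, 2 of 19 and 0 of 30 Tph1-high cells and in 7 of 22, 3 of 9 and 4 of 14 peptide-hormone-high cells. Rgs17, known for acting on Gi family members including Gz, stood at 0.246, 6.15 and 14.3 CPM against 56.7, 94.2 and 34.9 CPM, a log2 difference of -4.14 (SE 1.66) with an edgeR adjusted p of 0.754.

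Gng4 was seen in both classes. Its levels were 46.5, 66.8 and 112 CPM in Tph1-high cells and 93.6, 132 and 229 CPM in peptide-hormone-high cells. Within each plate the second value was the higher, by a near constant factor, yet the ranges of the 2 classes overlapped. The log2 difference was -1.05 (SE 0.34) with an edgeR adjusted p of 0.619, and on log2(CPM + 1) it missed the 2-fold limit. Gnaz stood at 151, 26.2 and 92.4 CPM in Tph1-high cells against 74.4, 12.3 and 16.6 CPM, with overlapping ranges, a log2 difference of 1.48 (SE 0.57) and an edgeR adjusted p of 0.736.

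Some widely expressed subunits were close to even. For Gnb1, Gnb2, Gng12, Gnai2, Gnao1, Gna11 and Gng5, fitted log2 differences lay between -0.03 and 0.41 with SE of 0.25 to 0.55. These 7 genes were picked because their fitted values were near 0, so the narrow range follows from the choice. Over the 27 genes the median log2 difference was 0.14, beside 0.16 over all genes tested. The 5 genes at 2-fold in every plate compare with 3.22% of all genes tested (2.15% higher and 1.07% lower in Tph1-high cells). Without adjustment 6 of the 27 had p under 0.05, and 6.68% of all genes did. DESeq2, another count model, called 5 (Rgs2 and Rgs7 higher, Rgs4, Gnai1 and Rgs17 lower) and 6.76% of all genes. Goblet markers differed between the classes too, at 855, 1163 and 512 CPM in Tph1-high and 7767, 2891 and 5712 CPM in peptide-hormone-high cells of plates 2 to 4. Their part in these differences was not tested.

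**Figure D3:**
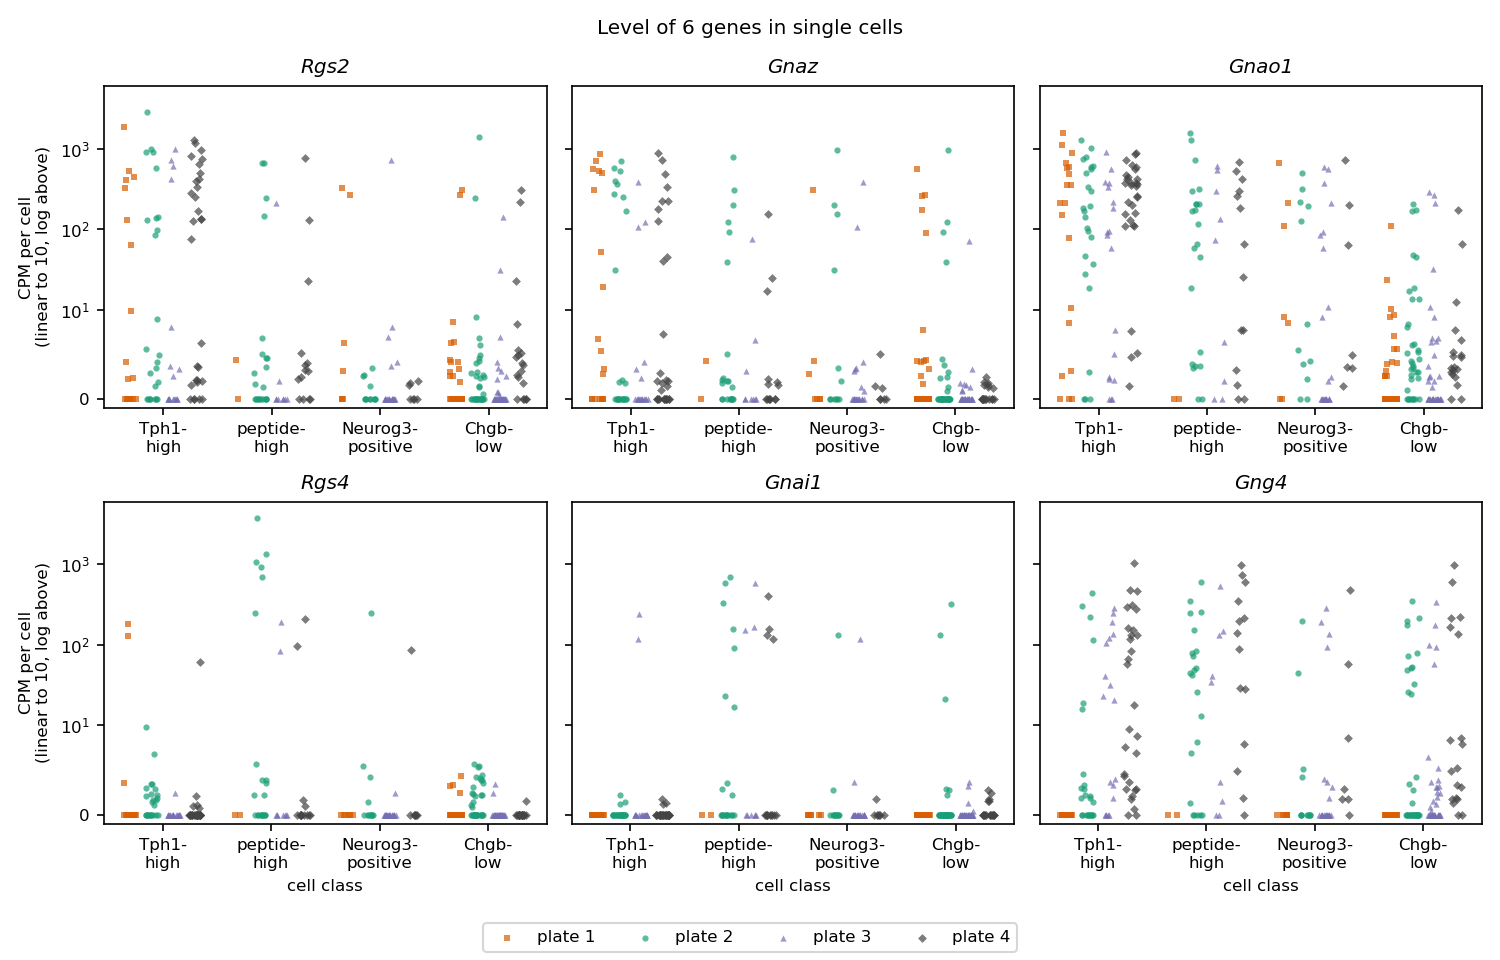
Level of 6 genes in single cells (y axis, CPM, linear up to 10 and logarithmic above) by cell class (x axis), with 1 point per cell and plates by colour and marker. Tph1-high and peptide-high columns leave out cells in both classes. Points for Rgs4 and Gnai1 above 10 CPM lie mostly in the peptide-high column, those for Rgs2 mostly in the Tph1-high column, and Gng4 has none in plate 1.

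Within the peptide-hormone-high class, the genes were spread unevenly over the hormones. The 47 cells outside the Tph1-high class were split by their most abundant hormone gene among the 4, a split chosen after the values had been seen and given here without a test. Cck led in 22 cells, Ghrl in 11, Gip in 9 and Gcg in 5. Rgs4 reached 5 counts in 8 of the 9 Gip-leading cells (6 of 6 in plate 2, 1 of 1 in plate 3, 1 of 2 in plate 4). It did so in 2 of 22 Cck-leading cells, 0 of 5 Gcg-leading cells and 0 of 11 Ghrl-leading cells. Levels in the 9 Gip-leading cells were 1.65 CPM at the lowest, 694 CPM at the median and 3726 CPM at the highest. The highest value among Gcg-leading and Ghrl-leading cells was 5.69 CPM. Over all 290 cells 16 reached 5 Rgs4 counts, and 10 of them were peptide-hormone-high.

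Gnai1 and Gng4 were distributed differently. Gnai1 reached 5 counts in 6 Cck-leading, 4 Gip-leading and 4 Gcg-leading cells and in 0 of the 11 Ghrl-leading cells. Gng4 did so in 10 Cck-leading, 7 Gip-leading, 5 of 5 Gcg-leading and 8 Ghrl-leading cells, with medians of 7.44, 84.4, 200.2 and 73.6 CPM. Rgs2 was seen at 5 counts in 5 Cck-leading, 1 Gip-leading, 2 Gcg-leading and 0 Ghrl-leading cells. Gnai1 and Rgs4 reached 5 counts together in 3 of the 47 cells and Rgs2 and Rgs4 in 1. Of the Ghrl-leading cells 10 of 11 were also Chgb-low, against 9 of 22 Cck-leading and 0 of 9 Gip-leading cells. The Gip-leading cells came mostly from plate 2, and the Gcg-leading cells mostly from plate 4 (4 of 5), so plate and hormone are partly mixed here.

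**Figure D4:**
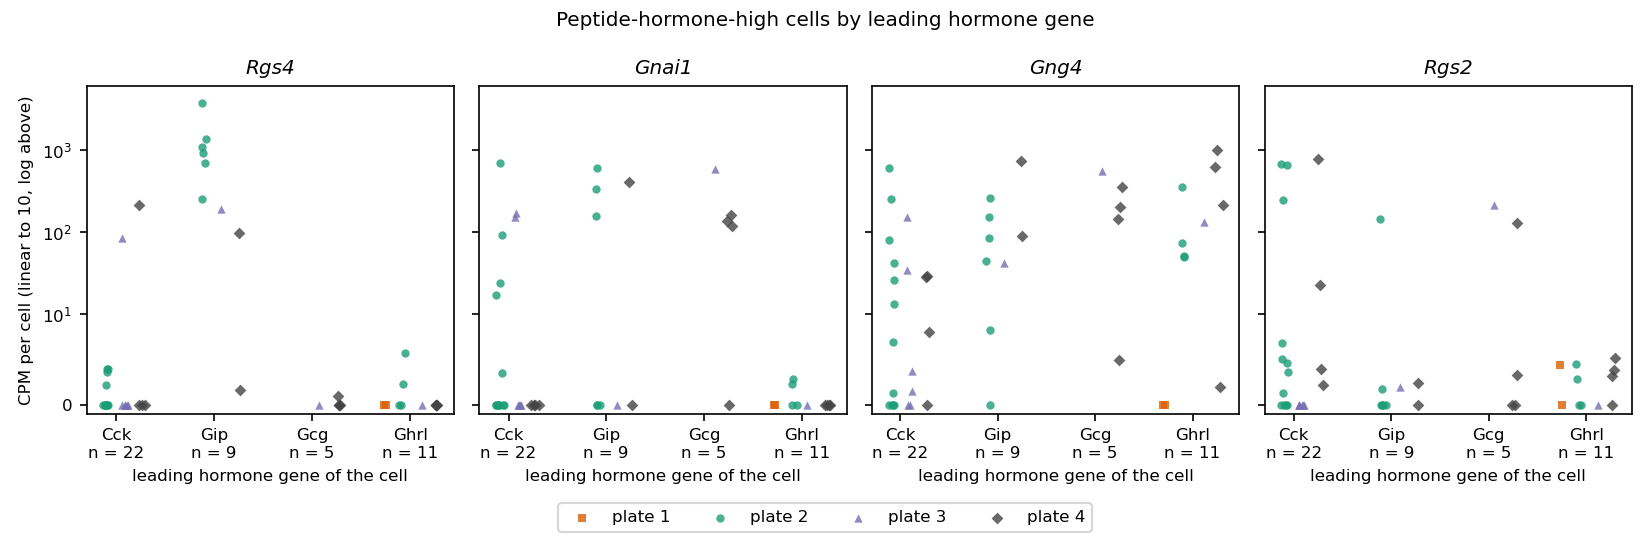
Level of Rgs4, Gnai1, Gng4 and Rgs2 in the 47 peptide-hormone-high cells outside the Tph1-high class, by leading hormone gene (x axis). The y axis is CPM per cell, linear to 10 and logarithmic above, with 1 point per cell and plates by colour and marker. Rgs4 is above 90 CPM in 8 of 9 Gip-leading cells, while Gnai1 is under 3 CPM in all 11 Ghrl-leading cells.

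The second comparison set Neurog3-positive cells, whatever their hormones, against hormone-high cells without Neurog3. Of the Neurog3-positive cells, 4, 7, 16 and 4 in plates 1 to 4 were in neither hormone class. The others were themselves Tph1-high or peptide-hormone-high, so this does not set progenitors apart from hormone cells. Neurog3-positive cells numbered 7, 12, 24 and 7 in plates 1 to 4, and hormone-high cells without Neurog3 20, 42, 21 and 42. Gnao1 and Rgs17 were at least 2-fold lower in Neurog3-positive cells in every plate. Of the 25 genes tested, 0 passed edgeR's quasi-likelihood test, where 0.0% of the 11006 genes tested did. Without adjustment 3 had p under 0.05, beside 7.87% of all genes. DESeq2 called 5, all lower (Gnao1, Rgs2, Rgs4, Rgs17 and Gnal), and 7.61% of all genes (5.62% as lower).

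Gnao1 stood at 158, 117, 68.0 and 124 CPM in Neurog3-positive cells of plates 1 to 4 and at 388, 265, 176 and 281 CPM in hormone-high cells. The lower value was the Neurog3-positive one in each plate, and the classes did not overlap. The log2 difference was -1.12 (SE 0.27) with an edgeR adjusted p of 0.284. Rgs17 stood at 0.788, 0.387, 13.5 and 0.239 CPM against 29.8, 28.5, 39.0 and 21.0 CPM, a log2 difference of -4.84 (SE 1.71) with an edgeR adjusted p of 0.550. It reached 5 counts in 2 of the 50 Neurog3-positive cells.

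Rgs2 varied among plates. It stood at 100.4, 0.774, 35.2 and 0.716 CPM in Neurog3-positive cells against 181, 294, 142 and 275 CPM, with an edgeR adjusted p of 0.634. The 2 higher values, in plates 1 and 3, came from 2 cells and 1 cell with at least 5 counts. Of these, the plate 1 cell at 319.5 CPM and the plate 3 cell at 711.5 CPM were also Tph1-high. Rgs4 stood at 0, 28.1, 0.100 and 8.12 CPM against 15.4, 137, 12.0 and 11.9 CPM, Gnai1 at 0, 6.39, 6.22 and 0.239 CPM against 0, 42.7, 67.5 and 19.2 CPM, and Gng4 at 0, 18.8, 30.7 and 68.3 CPM against 0, 74.5, 85.8 and 145 CPM. None of the 3 was higher in Neurog3-positive cells in any plate. EdgeR's adjusted p was 0.674 for Rgs4, 0.652 for Gnai1 and 0.710 for Gng4.

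The ubiquitous beta subunit Gnb1 was near even at 346, 422, 328 and 327 CPM against 317, 418, 391 and 421 CPM, a log2 difference of 0.01 (SE 0.21). Over the 25 genes the median log2 difference was -0.99, beside -0.42 over all genes tested. The 2 genes at 2-fold lower in every plate compare with 1.08% of all genes. The goblet markers summed to 3755, 14673, 7158 and 11122 CPM in Neurog3-positive cells against 691, 4284, 2123 and 2122 CPM, and their part in these values was not tested.

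The third comparison set Chgb-low against Chgb-high cells (44 and 28, 37 and 46, 39 and 33, 19 and 44 cells in plates 1 to 4). Of the 29 genes tested, 4 passed edgeR's quasi-likelihood test, all of them lower in Chgb-low cells. These were Rgs4, Rgs2, Gnai2 and Gng12. Over all 12672 genes 3.95% passed, and 1.46% passed as lower. The split over all genes was 315 higher and 185 lower with edgeR, but 1108 higher and 1479 lower with DESeq2, so direction counts depend on the model. DESeq2 called 12 of the 29, all lower, beside 11.7% of all genes called lower. No gene of the 29 was called higher by either. Without adjustment 11 of the 29 had p under 0.05, all lower, beside 20.6% of all genes.

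Rgs4 fell the furthest. It stood at 0.289, 1.47, 0.182 and 0.0906 CPM in Chgb-low cells and at 25.8, 185, 7.96 and 12.3 CPM in Chgb-high cells of plates 1 to 4, without overlap. The log2 difference was -6.04 (SE 0.69) with an edgeR adjusted p of 0.0102. It reached 5 counts in 0 of the 139 Chgb-low cells and in 16 of the 151 Chgb-high cells. In plate 1, 1 Chgb-high cell held 57.0% of the 263 Rgs4 counts, and in plate 3 another held 75.2% of 129. Single counts were wider spread, with 1 or more in 48.6% of the Chgb-low cells of plate 2, the plate with the highest Rgs4 level. Rgs2 fell from 176, 270, 117 and 261 CPM in Chgb-high cells to 12.6, 49.4, 4.86 and 28.3 CPM in Chgb-low cells, also without overlap. Its log2 difference was -3.11 (SE 0.40) with an edgeR adjusted p of 0.0152.

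The leading alpha and gamma subunits were lower by a smaller factor. Gnai2 stood at 152, 104, 60.4 and 172 CPM in Chgb-low cells and at 435, 381, 259 and 377 CPM in Chgb-high cells. Its log2 difference was -1.25 (SE 0.20) with an edgeR adjusted p of 0.0286. Gng12 stood at 131, 149.9, 105 and 187 CPM against 262, 506, 432 and 661 CPM, a log2 difference of -1.25 (SE 0.21) with an edgeR adjusted p of 0.0339. For both genes every Chgb-low value was below every Chgb-high value. Each was still seen at 5 counts in many Chgb-low cells, Gnai2 in 25 of 44, 22 of 37, 20 of 39 and 15 of 19.

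These 4 calls rest on all plates together. Without plate 1 or without plate 2, 0 of the genes passed. Without plate 3 only Rgs4 did, and without plate 4 Rgs4 and Gnai2 did, with the direction the same in each case. With Neurog3-positive cells left out of both classes, Rgs2 and Rgs4 passed and Gnai2 and Gng12 did not (edgeR adjusted p of 0.0606 and 0.0802). The summed goblet and Paneth marker levels given above move with this contrast in every plate, and their part in it was not tested. In sums over cells, fewer expressing cells and less RNA per cell cannot be told apart.

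By the descriptive rule 6 genes were at least 2-fold lower in all 4 plates, where 3.39% of all genes tested were. Rgs2 and Gnai2 were among those past edgeR, while Rgs11, Gnao1, Gna11 and Gnaz did not pass it. Gnao1 stood at 4.26, 17.8, 40.95 and 13.2 CPM in Chgb-low cells against 419, 298, 167 and 302 CPM, a log2 difference of -3.89 (SE 0.85) with an edgeR adjusted p of 0.0706. It reached 5 counts in 3 of 44, 9 of 37, 6 of 39 and 5 of 19 Chgb-low cells, against 18 of 28, 36 of 46, 19 of 33 and 39 of 44 Chgb-high cells. Gnaz stood at 30.9, 18.9, 1.73 and 0.725 CPM against 132, 120, 33.9 and 71.7 CPM, a log2 difference of -3.33 (SE 0.86) with an edgeR adjusted p of 0.109. Gna11 had a log2 difference of -0.95 (SE 0.23) and Rgs11 of -1.85 (SE 0.81), with edgeR adjusted p of 0.0962 and 0.269. Gnai1 stood at 0, 11.1, 0.182 and 0.543 CPM against 1.69, 39.4, 48.5 and 18.3 CPM, lower in every plate, with a log2 difference of -4.96 (SE 1.52) and an edgeR adjusted p of 0.155. Gng4 was listed at 0 in both classes of plate 1 and stood at 31.6, 11.5 and 132 CPM against 68.2, 73.8 and 115 CPM in plates 2 to 4, higher in Chgb-low cells of plate 4. Its log2 difference was -0.75 (SE 0.62) with an edgeR adjusted p of 0.554. In plate 4 the Chgb-low cells highest in Gng4, at 612.5 and 988.5 CPM, were also peptide-hormone-high, with Ghrl leading. Over the 29 genes the median log2 difference was -0.85, beside -0.08 over all genes.

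A few genes were higher in Chgb-low cells of every plate except plate 3, where they were lower. Gng5 stood at 13.1, 68.2, 43.5 and 58.2 CPM against 9.16, 58.3, 54.2 and 40.3 CPM, a log2 difference of 0.64 (SE 0.33) with an edgeR adjusted p of 0.336. Rgs17 stood at 36.2, 55.4, 13.2 and 30.4 CPM against 21.4, 8.87, 24.1 and 16.3 CPM, higher in 3 of 4 plates, with an edgeR adjusted p of 0.377. Gng11 stood at 51.9, 17.8, 0.364 and 17.8 CPM against 18.5, 2.22, 6.82 and 5.95 CPM and rested on 9 Chgb-low cells with at least 5 counts. Its edgeR adjusted p was 0.635, so none of these differences passed the test.

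**Figure D5:**
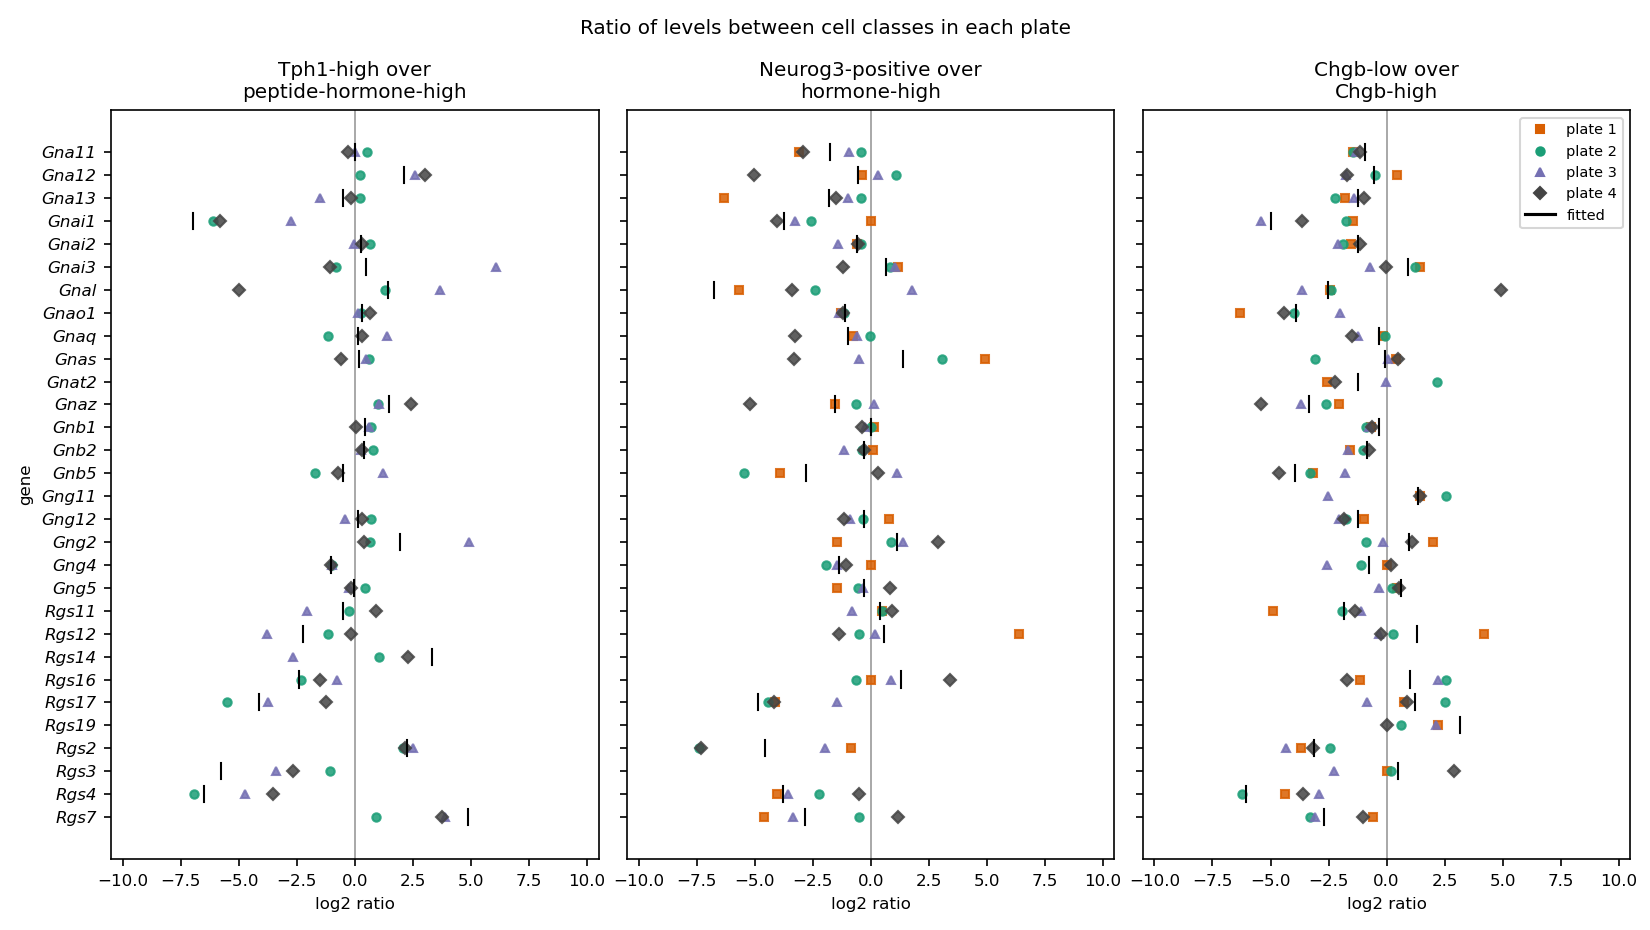
Log2 ratio of levels, from log2(CPM + 1), between cell classes in each plate (points) with edgeR's fitted value (black bar), for every gene tested in at least 1 of the 3 comparisons. Values left of 0 are lower in the first class named above each panel. In the right panel Rgs4, Rgs2, Gnai2 and Gng12 lie left of 0 in all 4 plates.

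Genes that act next to the subunits were read from 7 lists of effectors and regulators, with 47 genes in the table. In the Chgb comparison 3 of 35 tested genes passed, all lower in Chgb-low cells, beside 3.95% of all genes (1.46% as lower). Unadjusted p was under 0.05 for 10 of them, beside 20.6% of all genes, and DESeq2 called 11, beside 2587 of all 12672 genes. They were 1 of 4 adenylyl cyclases, 1 of 7 receptor kinases and arrestins and the 1 tested G protein-gated potassium channel. Adcy1, a calcium-stimulated adenylyl cyclase, stood at 0.0722, 2.05, 0.364 and 1.54 CPM in Chgb-low cells against 41.8, 127, 104 and 198 CPM, with an edgeR adjusted p of 0.00628. Arrb1, a beta-arrestin, stood at 0.217, 0.762, 2.86 and 1.09 CPM against 30.8, 48.2, 72.1 and 75.4 CPM, with an edgeR adjusted p of 0.0172. Kcnj3, a channel subunit opened by beta-gamma, had a log2 difference of -5.03 (SE 0.94) and an edgeR adjusted p of 0.0472. None of 3 phospholipase C beta genes, 8 protein kinase A and Epac genes or 7 chaperones and modulators passed.

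In the other class comparisons 0 of 36 and 0 of 33 of these genes passed edgeR. Unadjusted p was under 0.05 for 1 and 4 of them, beside 6.68% and 7.87% of all genes. DESeq2 called 3 and 4, beside 6.76% and 7.61% of all genes. By the 2-fold rule 1 of the 36 was higher in Tph1-high cells, beside 2.15% of all genes. In the Neurog3 comparison 2 of the 33 were lower in Neurog3-positive cells, beside 1.08% of all genes. Adcy1 was at least 2-fold higher in Tph1-high than in peptide-hormone-high cells in each plate, at 161, 158 and 271 CPM against 49.2, 0.233 and 26.5 CPM, with an edgeR adjusted p of 0.736. Plcb4, a phospholipase C beta, was at least 2-fold lower in Neurog3-positive cells, at 0, 3.48, 14.05 and 0.239 CPM against 181, 97.0, 47.0 and 34.5 CPM, with an edgeR adjusted p of 0.494. Grk3, a receptor kinase, was listed at 0 in Neurog3-positive cells of plates 1, 2 and 4 and at 23.4 CPM in plate 3, against 59.3, 24.2, 71.5 and 34.4 CPM in hormone-high cells, with an edgeR adjusted p of 0.494.

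Over whole plates, Gng4 set plate 1 apart. It had 0 counts in all 72 cells of plate 1, which allows up to 0.126 CPM (3 counts). For the share of cells with a Gng4 count it allows up to 4.17%, which does not limit how many cells express the gene below detection. In plates 2, 3 and 4 it stood at 51.9, 37.5 and 119 CPM, at least 298-fold higher. Gng4 reached 5 counts in 34 of 76 Tph1-high, 31 of 47 peptide-hormone-high, 9 of 43 Neurog3-positive and 26 of 95 Chgb-low cells of plates 2 to 4. The classes share cells, so these counts are not separate. Gnai1 stood at 0.711, 26.8, 20.3 and 14.1 CPM and Gng5 at 11.4, 62.7, 48.0 and 44.6 CPM in plates 1 to 4, both lowest in plate 1. Gng11 stood at 37.8, 9.17, 3.05 and 8.75 CPM and was highest there. Plate 1 also had 0 cells with a Gip or Gcg count and 3 peptide-hormone-high cells.

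Plate 1 is the only plate at 39 weeks, so age, animal, library and cell makeup cannot be told apart. Against the 2 duodenum plates at 12 weeks, 0 of 38 genes passed edgeR, where 0.0% of 18473 genes did. Unadjusted p was under 0.05 for 5 genes, beside 7.62% of all, and DESeq2 called Gng4, Gnai1 and Gng5, all lower at 39 weeks, beside 3.44% of all genes as lower. EdgeR's adjusted p was 0.390 for Gng4, 0.560 for Gnai1 and 0.593 for Gng5. Rgs4 had a log2 difference of -2.37 (SE 1.81) with an edgeR adjusted p of 0.664. At 2-fold against each plate, Gng4, Gnai1 and Gng5 were lower, beside 2.1% of all genes, and Gng11 higher, beside 4.69%.

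The single jejunum plate was set against the 3 duodenum plates in the same way. Tissue, animal and plate cannot be told apart in this comparison. Age is also unbalanced, since plate 1 on the duodenum side was older than the jejunum plate. Of 40 genes, 0 passed edgeR, where 0.0% of 19322 genes did, unadjusted p was under 0.05 for 2 (4.23% of all), and DESeq2 called 1, Rgs19, which had 0 counts in jejunum (3.78% of all). Gng4 and Rgs16 were at least 2-fold higher in the jejunum plate than in each duodenum plate, beside 1.12% of all genes. Rgs16 stood at 32.6 CPM in jejunum against 7.91, 8.94 and 15.6 CPM, with an edgeR adjusted p of 0.934. For Gng4 the adjusted p was 0.989. Rgs4 stood at 9.42 CPM in jejunum against 11.0, 103 and 3.42 CPM, and plate 2 alone set it high. Its log2 difference was -2.03 (SE 1.76), with an edgeR adjusted p of 0.950, and turned to 0.42 without plate 2. For Gnai1 it was -0.22 (SE 1.59), with an edgeR adjusted p of 0.9997, and turned to 0.33 without plate 2 and 0.05 without plate 3. Cell class shares differed between plates as given above, and their part in these plate differences was not tested.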

How the data were processed

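Sorted single cells (DAPI-negative, eYFP-positive, 92 per plate with 4 wells left empty) were sequenced with a plate-based whole-transcriptome kit. The deposited values are whole-number counts per gene and cell, used as deposited. The submitters' processing notes name bcl2fastq 2.17.1.14, cutadapt 1.10, Bowtie2 2.2.8, STAR 2.5.3a, UMI-tools 0.4.4, HTSeq 0.6.1 and mm10, with no order. It is not stated whether counts were collapsed by molecular index, how reads shared by overlapping genes were counted, or whether strand was used. Limits for 0 counts (3 counts) therefore cover counting error only. Single cells held 202711 to 2312044 counts. No cell was removed and no doublet caller was run.

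Counts were summed per plate and class (where a plate held 5 or more cells of each) and tested with edgeR 4.0.16 (R 4.3.3, limma 3.58.1, DESeq2 1.42.0). This was the quasi-likelihood test with TMM, filterByExpr and a plate term as the block, and p was adjusted by Benjamini-Hochberg over all genes tested, at a threshold of 0.05. The 7 class-defining genes were left out. The block pairs classes from the same plate. Plate comparisons summed all cells of a plate. SE is the absolute log2 difference over the root of the F statistic. A second, descriptive rule asked for a 2-fold difference in the same direction in every plate on log2(CPM + 1), with at least 20 CPM in the higher class. Exon lengths and overlaps came from GENCODE M21 on GRCm38. The scripts were tested on simulated data.

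Named in each comparison were Gng4, Gnai1 and Rgs4, genes past the threshold, up to 6 per direction under the 2-fold rule, up to 3 leading genes per family, and genes with 50% of a plate's 100 or more counts in 1 cell. Others given beside them were chosen after their values were seen. The genes, lists and classes were chosen with earlier results of these data known. Alternatives were RLE size factors, DESeq2, no filter on low counts, no replicate block, equal weight per cell (limma), the highest cell capped, stricter class limits, at least 3 cells per class, another treatment of cells in 2 classes (given to the peptide-hormone-high class, or Neurog3-positive cells with a hormone, or all Neurog3-positive cells, left out, in the order of the comparisons), and each plate left out. Of the 7 lists of effectors and regulators, 1 is not reported here by name.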

Additional observations from a re-analysis of the deposited data

How the results depend on the processing

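Counts of genes past the threshold moved with the model more than with any other choice. In the Tph1-high comparison, where edgeR called 5 genes, DESeq2 called 774, no filter on low counts 8, no replicate block 11, a capped highest cell 2, and RLE size factors, stricter class limits and cells meeting both limits given to the peptide-hormone-high class 0 each. Leaving out 1 plate at a time gave 0 to 0. Of the G protein and Rgs genes DESeq2 called 5 there and every other setting 0. In the Neurog3 comparison, against 0 genes, DESeq2 called 838, no filter 24, equal weight per cell 7 and a capped highest cell 15, and DESeq2 called 5 G protein and Rgs genes. In the Chgb comparison, against 500 genes and 4 of these, DESeq2 called 2587 and 12, equal weight per cell 8 of these genes, and leaving Neurog3-positive cells out of both classes 2. Leaving out 1 plate gave 87 to 283 genes and 0 to 2 of these. Without the replicate block the pairing of classes by plate was dropped, which left 361 genes and 3 of these in the Chgb comparison (Rgs2, Rgs4 and Gnao1 among the named ones) and 0 in the Neurog3 comparison. For jejunum, against 0 genes, DESeq2 called 730 and 1 of these, no filter 9, and leaving out a duodenum plate 0 to 10. For age, against 0, DESeq2 called 915 and 3 of these, and no filter 221 and 2 of these (Gng4 and Gnai1). Leaving out a plate was not run for age, where no residual degree of freedom would remain.

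Directions were more stable than calls. Of 299 alternative values for the 27 single-gene results, 4 reversed, all in the jejunum comparison and none past the threshold. Gnai1 was at 0.52 (log2) with equal weight per cell, 0.33 without duodenum replicate 2 and 0.05 without duodenum replicate 3, and Rgs4 was at 0.42 without duodenum replicate 2. Leaving out each duodenum plate in turn, these ranged from -0.78 to 0.33 for Gnai1 and from -2.58 to 0.42 for Rgs4. The cause was not tested. In 13 of 17 losses of a call, 1 plate had been left out, so fewer samples were fitted. At 1 count or more in place of 5, 143 of 735 combinations of gene, class and plate were detected in over 50% of cells, against 83, and 97 after thinning to 100000 counts. The leading gene of a family was the same in 54 of 60 cases without length scaling and in 49 with the mean of single cells.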
